A study of Xenopus tropicalis with 21 samples.

Results

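The genes described here encode the protein coat of plasma lipoproteins and the proteins that load, esterify and exchange their lipids: the apolipoprotein genes apoa1, apoa4, apob, apoc1, apoc2, apoe and apoh, the lipid transfer protein genes mttp and pltp, and the enzyme gene lcat. They were taken by symbol, numbered copies included. The 10 symbols matched 11 of the 20288 rows in each of the 2 tables, because mttp is present as mttp.1 and mttp.2. Of the 11 rows, 10 held a usable value in each generation. The exception, mttp.2 (chromosome 7, 47564786 to 47602277), was marked in both tables as having too much data and has no expression value here.

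Liver mRNA of 21 female tropical clawed frogs (Xenopus tropicalis) was sequenced: 5 controls and 6 frogs of the BaP lineage in the F1 generation, and 5 of each in F2. None of these females was herself placed in the exposure water, and whether any of the compound reached F1 through its parents is not given. "BaP" names a lineage whose F0 ancestors grew from tadpole to adult in water with benzo[a]pyrene (BaP, a polycyclic aromatic hydrocarbon) at 50 ng/L. The labels used here do not give strain, age or shared parentage.

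Levels are in FPKM, fragments of cDNA counted against transcript length and the total mapped, with 1 value per group as the authors' software made it from all frogs of the group. Values of single frogs are in neither table, so no SD can be given and library depths are unknown. "Called" describes a gene where the authors' q, the p adjusted over all tested rows, was under 0.05. The 95% intervals were derived from each deposited log2 fold change and its p, on the assumption of normal error.

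Lipoproteins carry triglyceride and cholesterol ester through blood inside a shell of phospholipid and apolipoproteins. In the hepatocyte, the microsomal transfer protein encoded by mttp adds lipid to apolipoprotein B as it enters the endoplasmic reticulum, and the particle is secreted as very low density lipoprotein. Apolipoprotein A-I scaffolds high density lipoprotein, on which lecithin-cholesterol acyltransferase (lcat) makes cholesterol esters. In an egg-laying female the liver also exports vitellogenin, a member of the same large lipid transfer protein family as apolipoprotein B and the microsomal transfer protein. The vitellogenin gene vtga2 was marked as having too much data in both tables, like mttp.2, and has no value here.

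The apolipoprotein genes other than apoe were among the most abundant transcripts of the liver in all 4 groups. The gene of the small exchangeable apolipoprotein C-I, apoc1 (chromosome 7, 109292986 to 109296557), was the highest of the set. In the authors' deposited tables it had 9777 FPKM in F1 controls, 16664 in F1 BaP frogs, 11426.5 in F2 controls and 9172 in F2 BaP frogs. It ranked 7 among 20273 usable rows in F1 controls and 4 in F1 BaP frogs, and 22 and 25 among 20275 in the F2 groups. These ranks leave out the rows marked as having too much data, 15 in F1 and 12 in F2, with the albumin gene alb among them. The place of apoc1 among all transcripts is therefore not known.

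In F1 the second was apoa4 (chromosome 7, 82262263 to 82266467), a further exchangeable apolipoprotein gene, and in F2 it was apoc2. The gene apoa4 was listed at 911 and 918 FPKM in the F1 control and BaP groups and at 833 and 968 in the F2 groups of the authors' deposited tables. The gene of the lipoprotein lipase cofactor, apoc2 (chromosome 7, 109316074 to 109319924), had 525 and 759 FPKM in F1 and 1631 and 1221 in F2, control before BaP, in the authors' deposited tables. The highest F1 value of apoc2 was therefore below its lowest F2 value, although the 2 tables were scaled separately. The same held for apoh, apoa1, apob and mttp.1, but not for the other usable genes of the set. The share of all rows with this order was not counted.

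The gene of beta-2-glycoprotein I, apoh (chromosome 10, 50870611 to 50879752), was listed by the authors' deposited tables at 490 and 603 FPKM in F1 and at 730 and 607 in F2. The high density lipoprotein scaffold gene apoa1 (chromosome 7, 82229654 to 82233157) was at 313 and 413 FPKM in F1 and at 566 and 525 in F2. The gene of the structural protein of very low and low density lipoprotein, apob (chromosome 5, 143919973 to 143955929), was at 145 and 165 FPKM in F1 and at 284 and 280 in F2 of the authors' deposited tables. These 6 genes, from apoc1 to apob, exceeded 100 FPKM in every group, and even apob stood in the top 2.15% of usable rows in F1 controls.

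The measurable lipid transfer and esterification genes (mttp.1, pltp and lcat) and apoe were far less abundant. In the authors' deposited tables lcat (chromosome 4, 76578932 to 76588911) had 21.3 and 18.2 FPKM in the F1 control and BaP groups and 28.4 and 17.1 in those of F2. The measurable copy of the microsomal transfer protein gene, mttp.1 (chromosome 1, 74431742 to 74466100), had 8.28 and 8.12 FPKM in F1 and 20.2 and 11.7 in F2. How reads shared with mttp.2 were counted is not given, so the level of mttp.1 is uncertain. As mttp.2 was marked as having too much data, the level of both copies together is unknown.

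The gene of the remnant receptor ligand, apoe (chromosome 7, 109270850 to 109276343), was listed by the authors' deposited tables at 3.42 and 6.02 FPKM in F1 and at 3.31 and 2.84 in F2. In mammals the liver is a main source of apolipoprotein E; here apoe stood in the top 38.2% of rows in F1 controls and was 154-fold lower per length than apoc2 in that group. The phospholipid transfer protein gene pltp (chromosome 10, 19803057 to 19814364) was lowest, with 1.88 and 0.746 FPKM in F1. In F2 it was listed at 0.191 and 0.294 FPKM and was not tested there. Without values of single frogs, the differences between neighbours in this order could not be tested.

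**Figure D1:**
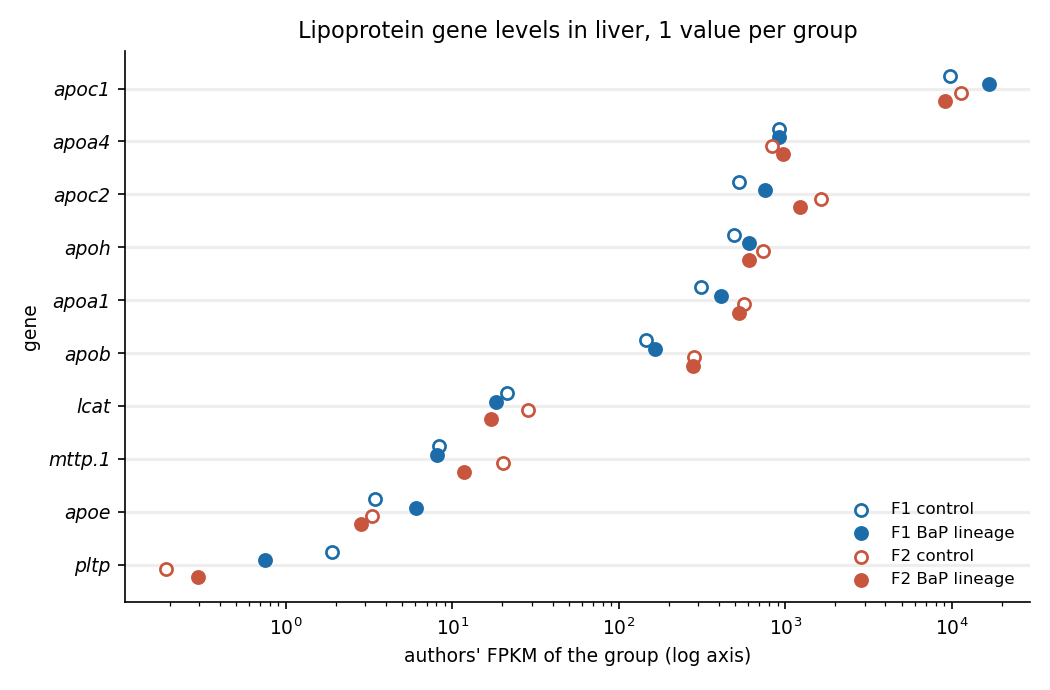
Group FPKM (horizontal log axis) of the 10 lipoprotein genes with a usable value, ordered by the F1 control level, with open circles for controls, filled circles for BaP lineages, blue for F1 and red for F2. Each point is 1 deposited group value without error, and the set spans from 0.191 FPKM for pltp to 16664 for apoc1.

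The first comparison asked whether these genes differed between daughters of BaP-exposed and control frogs. The 6 abundant apolipoprotein genes all had a higher value in the F1 BaP group, if barely so for apoa4, but none of the 10 tested genes was called by the authors' Cuffdiff test, where 1.67% of all 12426 tested rows were called. Their q ran from 0.216 to 0.9995 in the authors' deposited table. Log2 fold changes (BaP over control) were above 0 for 7 genes and below 0 for 3, with a median of 0.24 against 0.02 for all tested rows, of which 53.2% were above 0.

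At an unadjusted p under 0.05 stood 1 gene that was higher, apoe, and 1 that was lower, pltp. Of all tested rows, 4.35% were higher and 4.55% lower by that measure. For apoe the log2 fold change was 0.82 in the authors' deposited F1 table (95% interval 0.11 to 1.52, p = 0.0244, q = 0.396), a 1.76-fold higher value. For pltp the authors' deposited table gave -1.33 (interval -2.33 to -0.34, p = 0.00835, q = 0.216), a 2.52-fold lower value of a gene near 1 FPKM.

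The larger apolipoprotein differences in F1 came with wide intervals. The authors' deposited table gave apoc1 a log2 fold change of 0.77 (interval -0.55 to 2.09, q = 0.976) and apoc2 one of 0.53 (interval -0.27 to 1.33, q = 0.917). It gave apoa1 0.40 (interval -0.51 to 1.32, q = 0.9995) and apoh 0.30 (interval -0.40 to 1.001, q = 0.9995). These intervals take in both no change and a doubling for apoc1, apoc2, apoa1 and apoh.

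The measurable genes at the core of very low density lipoprotein assembly had point values near 0 in F1, with intervals that reach to both sides. In the authors' deposited table apob had a log2 fold change of 0.18 (interval -0.72 to 1.09) and mttp.1 one of -0.03 (interval -0.61 to 0.55). For apoa4 the value was 0.01 (interval -1.05 to 1.07), and below 0 after subtraction of the median of all tested rows. For lcat it was -0.23 (interval -0.78 to 0.33). The intervals of apob and apoa4 take in a doubling. Each of these 4 genes had a q of 0.9995 in that table.

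The second comparison asked the same of granddaughters. In F2 the BaP group had the lower value for 8 of the 9 tested genes, and again none was called by Cuffdiff, against 1.32% of 12236 tested rows. The q ran from 0.110 to 0.999 in the authors' deposited table. The median log2 fold change was -0.27, against -0.03 for all tested rows, of which 45.8% were above 0.

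Within the set, the measurable genes that load and esterify lipid had the smallest p in F2. The log2 fold change of mttp.1 was -0.79 in the authors' deposited table (interval -1.29 to -0.28, p = 0.0022, q = 0.110), a 1.73-fold lower value in BaP frogs. That of lcat was -0.74 in the authors' deposited table (interval -1.26 to -0.21, p = 0.0061, q = 0.194), a 1.66-fold lower value. Both had an unadjusted p under 0.05, as did 4.49% of all tested rows on the lower side. On the higher side, where 4.41% of rows passed, none of the set did.

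Among the apolipoprotein genes in F2, the authors' deposited table gave log2 fold changes of -0.42 for apoc2 (interval -1.07 to 0.24) and -0.32 for apoc1 (interval -1.04 to 0.41). Those of apoh and apoe were -0.27 (interval -0.85 to 0.31) and -0.22 (interval -0.82 to 0.38). For apoa1 it was -0.11 (interval -0.89 to 0.68) and for apob -0.02 (interval -0.74 to 0.70). The single value above 0 was that of apoa4, 0.22 (interval -0.51 to 0.94). The q of these 7 genes was 0.855 or higher, and the signs of apob and apoa1 turned with the scaling, as given under the processing alternatives.

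**Figure D2:**
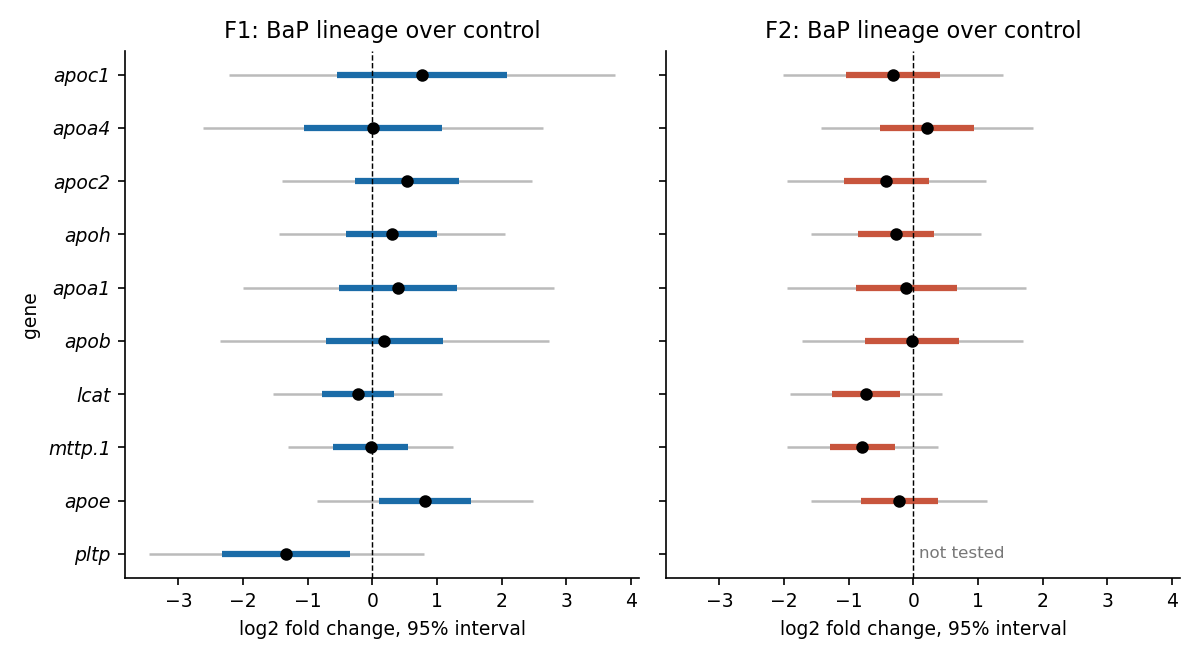
Log2 fold change of the BaP lineage over control (horizontal axis) per gene in F1 (left) and F2 (right); black points are the authors' values, coloured bars the 95% intervals from the deposited p, and thin grey bars those from the deposited test statistic. The coloured bars of apoe and pltp in F1 and of mttp.1 and lcat in F2 leave out 0, and every grey bar takes in 0.

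Intervals of the lipoprotein genes depend on which deposited quantity gives the error. Standard errors from the test statistic were 2.15 to 2.82 times those from the p in F1 and 2.23 to 2.37 times in F2. From the p, 2 of 10 intervals left out 0 in F1 and 2 of 9 in F2; from the statistic, 0 in each.

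The generations were then set against each other by subtracting each gene's F1 change from its F2 change, since each has its own controls. The difference was below 0 for 8 of the 9 genes tested in both tables, with a median of -0.57 on the log2 scale. For all 11677 rows compared the median was -0.04, and the share below 0 was not counted. Among rows outside the set at 100 to 1000 FPKM, the median change was 0.17 in F1 and -0.19 in F2. At 1000 FPKM and over it was 0.65 and -0.18. None of the 9 passed a normal test of the difference (Benjamini-Hochberg adjusted p from 0.448 to 0.994), where 0.959% of rows passed. At an unadjusted p under 0.05 stood 1 of the 9, against 9.03% of rows.

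That gene was apoe, with a difference of -1.03 (interval -1.96 to -0.11, p = 0.0289, adjusted p = 0.448 by the normal test on the authors' changes and p). The differences of apoc1 and apoc2 were -1.09 (interval -2.59 to 0.42) and -0.95 (interval -1.98 to 0.09). That of mttp.1 was -0.76 (interval -1.53 to 0.01), because its point value was near 0 in F1 and lower in F2. Of the 9 genes, 6 were higher in the F1 BaP group and lower in the F2 BaP group, 2 (mttp.1 and lcat) were lower in both and 1 (apoa4) was higher in both. Of all tested rows, 53.2% were above 0 in F1 and 45.8% in F2, and the share with opposite signs was not counted. All of these 6 genes but apoe exceeded 100 FPKM, where most rows were above 0 in F1 but not in F2. A change in liver composition and one in RNA per cell cannot be told apart in these bulk samples.

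Over all rows, the share above 0 varied with the level of expression in both tables. In F1, 5 lipoprotein genes had a mean of 100 to 1000 FPKM, and all 5 values were above 0; so were 65.9% of the other 484 rows at that level, with a median of 0.17. At 1000 FPKM and over, where apoc1 stood, 93.5% of the other 124 rows were above 0 and the median was 0.65. In F2 the same classes were lower: 28.7% of 422 rows at 100 to 1000 FPKM were above 0 (median -0.19), and 20.9% of 129 rows at 1000 FPKM and over (median -0.18). Of the lipoprotein genes, 1 of 4 and 0 of 2 in these F2 classes were above 0. At 10 to 100 FPKM it was 0 of 2, and at 1 to 10 FPKM 0 of 1, where 43.5% and 47.5% of the other rows were above 0.

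After subtraction of the median of its own level class, the median of the lipoprotein genes was 0.07 in F1 and -0.14 in F2. The F1 value of apoc1 came down from 0.77 to 0.12, while that of apoe was 0.80 by this measure. The F2 values of mttp.1 and lcat, in a class whose median was -0.05, were -0.74 and -0.69. Whether the level trend itself accounts for the values of the abundant apolipoprotein genes was not tested.

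**Figure D3:**
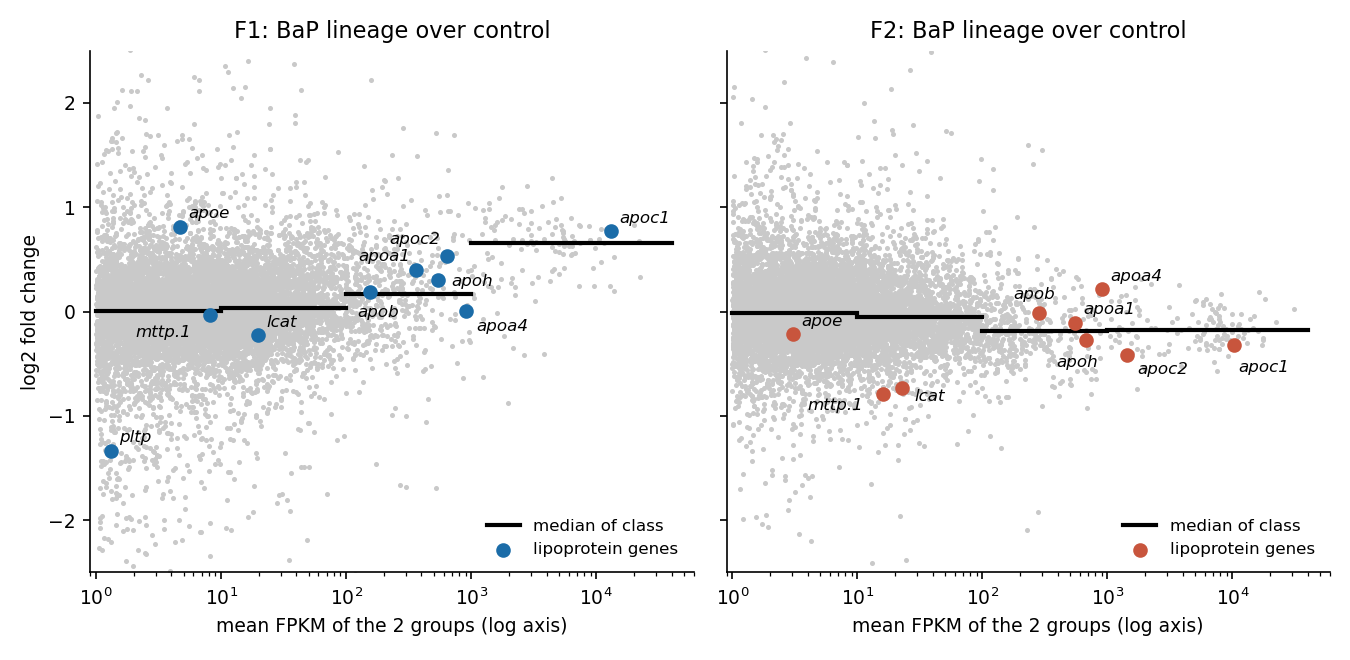
Log2 fold change of the BaP lineage over control against the mean FPKM of both groups (log axis) for tested rows at 1 FPKM or more (grey), with lipoprotein genes coloured and named and black lines for the median of each level class of the other rows. The vertical axis ends at 2.5 in each direction. The F1 medians climb to 0.65 at 1000 FPKM and over, and the F2 medians lie at -0.19 and -0.18 in the upper classes.

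Other genes of the hepatocyte were in the same range. Of a list of 17 hepatocyte markers, mostly secreted plasma protein genes, 13 were tested in each generation and 0 were called by Cuffdiff in either, 0 of them also at an unadjusted p under 0.05. Their median log2 fold change was 0.27 in F1, with 10 of 13 above 0, and -0.30 in F2, with 9 of 13 below 0. Fibrinogen, prothrombin, retinol-binding protein and alpha-1-antitrypsin genes (fgb, f2, rbp4 and serpina1) were at 913, 975, 4374 and 2763 FPKM in F1 controls in the authors' deposited table. Lower members of the list were ttr, hnf4a and asgr1, at 47.9, 11.0 and 0.210 FPKM in F1 controls, and asgr1 was not tested in F1. The albumin gene alb was marked as having too much data.

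Enterocytes make apoa1, apoa4 and apob too, and 4 of 15 enterocyte marker rows reached 1 FPKM in each generation. The highest, the alkaline phosphatase row alpi.1, was listed by the authors' deposited tables at 28.7 and 17.8 FPKM in F1 and at 27.4 and 16.99 in F2. The aminopeptidase gene anpep was between 6.42 and 9.23 FPKM, the fatty acid binding protein gene fabp2 between 0 and 0.0488, and cdx1 was listed at 0 in all 4 groups. The summed enterocyte list was 47.3 FPKM in F1 controls and 35.0 in F1 BaP frogs, and 39.2 and 31.4 in F2. Called members of that list were krt20, lower in F1 (-2.40, q = 0.0349), and alpi.2, higher in F2 (1.65, q = 0.00755), in the authors' deposited tables. That was 1 of 6 tested rows in F1 and 1 of 4 in F2, against 1.67% and 1.32% of all tested rows. The part of enterocytes in the lipoprotein gene values was not tested.

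Macrophages are a known source of apolipoprotein E, and the apoe value was higher in the F1 BaP group. Of 10 macrophage marker rows 9 were above 0 in F1, as were 53.2% of all tested rows. Among them mrc1 was at 0.0009 and ptprc at 0.08, while cybb was at -0.08. The F1 sum was 268 FPKM in controls and 354 in BaP frogs, with c1qa at 83.9 and 135 and c1qc at 22.9 and 43.1. By Cuffdiff 0 were called, and 3 were higher at an unadjusted p under 0.05, as were 4.35% of all tested rows. In F2, where the apoe value was lower in BaP frogs, 8 of 10 were above 0, as were 45.8% of all tested rows. The F2 sums were 166 and 188 FPKM, with 0 called and 0 at an unadjusted p under 0.05. None of the 10 was listed at 0. The part of macrophages in the apoe values was not tested.

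Of the set, 5 genes lie in 2 short stretches of chromosome 7, arranged much as their human counterparts are. The apoe, apoc1 and apoc2 genes span 49.1 kb, beside tomm40 and nectin2, and between apoc1 and apoc2 lie 2 rows with LOC identifiers only. All 5 rows inside this stretch had a positive log2 fold change in F1 and a negative one in F2, and 0 were called. All but apoe had a mean of at least 100 FPKM. Of rows outside the set at 100 to 1000 FPKM, 65.9% were above 0 in F1 and 28.7% in F2. At 1000 FPKM and over, it was 93.5% and 20.9%. The share of all rows with both signs was not counted. The unnamed rows LOC101731543 and LOC100489282 were themselves abundant, with 1386 and 469 FPKM in F1 controls in the authors' deposited table. Their log2 fold changes were 0.20 and 0.43 in F1 and -0.40 and -0.39 in F2. Outside it, tomm40, which encodes a mitochondrial import pore, had 0.56 and -0.27, and the adhesion molecule gene nectin2 had -0.15 and -0.32 in the authors' deposited tables.

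The stretch of apoa1 and apoa4 spans 36.8 kb, with apoa5 and zpr1 next to it. The row between its genes, LOC100135198, had 3963 FPKM in F1 controls, more than either neighbour, and the authors' deposited tables gave it log2 fold changes of 0.41 for F1 and -0.18 for F2. Beside it, apoa1 had 0.40 in F1 and -0.11 in F2, and apoa4 had 0.01 and 0.22. The gene of apolipoprotein A-V, a regulator of triglyceride breakdown in mammals, apoa5, was at 58.8 and 112 FPKM in F1 and at 112 and 118 in F2. Its log2 fold change was 0.92 in F1 (p = 0.0505, q = 0.564) and 0.07 in F2 (q = 0.997) in the authors' deposited tables.

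**Figure D4:**
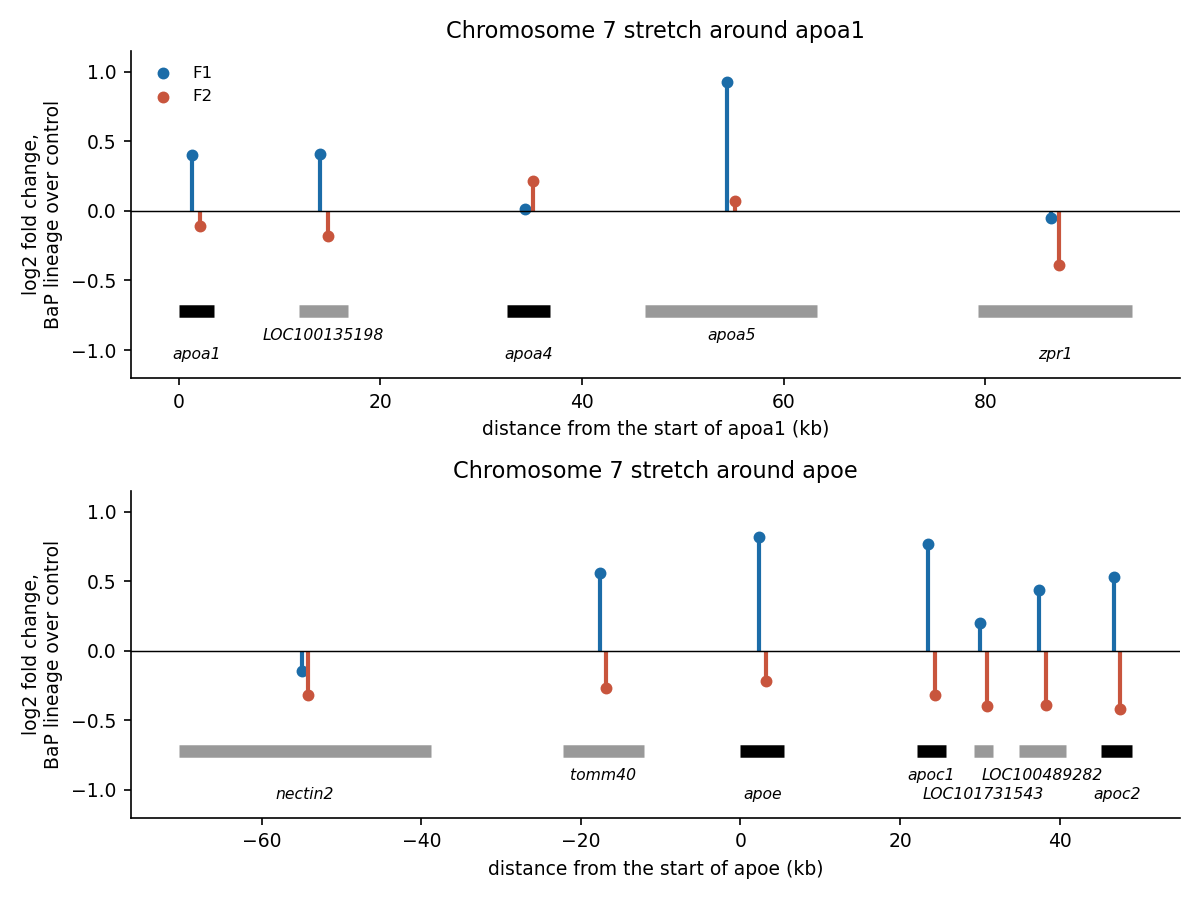
Log2 fold change of the BaP lineage over control (vertical axis, blue F1, red F2) along the 2 chromosome 7 stretches, by distance in kb from the start of apoa1 (top) and apoe (bottom); bars below mark the gene spans, black for lipoprotein genes of the set and grey for the other rows. From apoe to apoc2 every F1 value is above 0 and every F2 value below 0, while apoa4 is at or above 0 in both. Of all tested rows, 53.2% are above 0 in F1 and 45.8% in F2. Every row from apoe to apoc2 but apoe itself has a mean of at least 100 FPKM. Of rows outside the set at 100 to 1000 FPKM, 65.9% are above 0 in F1 and 28.7% in F2. At 1000 FPKM and over, it is 93.5% and 20.9%.

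Of the 14 further apolipoprotein symbols listed, 4 were found (apoa5, apof, apom and clu), and 0 of these were called by Cuffdiff in either generation. All 4 were above 0 in F1 (median 0.45), and 2 of 4 in F2 (median 0.01). The largest F2 value was that of clu, which encodes the extracellular chaperone clusterin (apolipoprotein J). The authors' deposited table lists 1.64 FPKM for F2 controls and 3.93 for F2 BaP frogs, a log2 fold change of 1.27 with p = 0.0013 and q = 0.0768. In F1 clu had 0.45 (q = 0.944). For apof, whose product inhibits cholesteryl ester transfer in humans, the values were 0.39 and -0.13 in the authors' deposited tables.

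Genes of lipoprotein assembly and secretion, a list of 37 rows, had 0 called in either generation, with medians of 0.09 in F1 and -0.06 in F2. At an unadjusted p under 0.05 were 2 higher and 1 lower in F1, and 2 lower in F2. Of all tested rows, 4.35% were higher and 4.55% lower by that measure in F1, and 4.41% and 4.49% in F2. The protein disulfide isomerase gene p4hb, whose product is the partner subunit of the microsomal transfer protein, was at 107 and 128 FPKM in F1 and 148 and 153 in F2, with log2 fold changes of 0.26 and 0.05 in the authors' deposited tables. The monoacylglycerol acyltransferase gene mogat2.2 came closest to a call, with 29.5 FPKM in F1 controls and 63.9 in F1 BaP frogs (log2 fold change 1.11, q = 0.0518) in the authors' deposited table.

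The cargo receptor gene mia2, needed in mice for very low density lipoprotein export, had -0.76 in F1 (p = 0.0278, q = 0.415) in the authors' deposited table. In F2 the last enzyme of triglyceride synthesis, dgat2, was listed at 437 FPKM in controls and 116 in BaP frogs (log2 fold change -1.92, p = 0.005, q = 0.179) in the authors' deposited table. The chaperone gene pdia4 had -1.03 in the authors' deposited table (p = 0.00235, q = 0.115). In the normal test of F2 against F1, made from the authors' changes and p, the differences were -2.03 for dgat2 (adjusted p = 0.385) and -1.50 for pdia4 (adjusted p = 0.0973).

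In the list of plasma lipid remodelling, 16 of 20 rows were tested and 0 were called in each generation, with medians of 0.14 in F1 and -0.18 in F2. At an unadjusted p under 0.05, 2 were higher for F1, and 2 lower for F2. Among all tested rows, 4.35% were higher for F1 and 4.49% lower for F2. Hepatic lipase, lipc, was listed by the authors' deposited tables at 86.1 and 165 FPKM in F1 and at 251 and 225 in F2, with log2 fold changes of 0.94 (q = 0.448) and -0.15 (q = 0.991). The paraoxonase gene pon2 had 0.73 in F1 (q = 0.466) and -0.70 in F2 (q = 0.418) in the authors' deposited tables, a difference of -1.43 (adjusted p = 0.119, normal test). The cholesteryl ester transfer protein gene cetp had 0.32 and -0.60 in the authors' deposited tables, the lipoprotein lipase gene lpl 0.40 and 0.30, and the cholesterol efflux pump gene abca1 -0.29 and 0.32, none called.

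Receptor genes had medians of 0.02 in F1 (15 tested) and -0.09 in F2 (17 tested), again with 0 called, 0 at an unadjusted p under 0.05 in F1 and 1 higher in F2. That gene was the scavenger receptor gene stab1, with 0.67 (q = 0.351) in the authors' deposited F2 table. Among all tested F2 rows, 4.41% were higher at that unadjusted p. The low density lipoprotein receptor gene ldlr was listed by the authors' deposited tables at 135 and 102 FPKM in F1 and at 52.5 and 81.0 in F2 (log2 fold changes -0.41 and 0.63, q = 0.9995 and 0.677). The receptor of vitellogenin and very low density lipoprotein, vldlr, had 0.28 and 0.17, the remnant receptor gene lrp1 -0.31 and 0.40, and the high density lipoprotein receptor gene scarb1 0.09 and -0.39 in the authors' deposited tables. The chaperone gene lrpap1 had 0.52 and 0.33. The gene mylip, an E3 ligase gene of the low density lipoprotein receptor, had -0.51 in F2 (q = 0.637) and was not tested in F1.

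Of the regulators, 29 were tested in each generation and 0 were called, with medians of -0.09 in F1 and 0.02 in F2. At an unadjusted p under 0.05 were 2 higher and 3 lower in F1, and 2 higher and 1 lower in F2. Of all tested rows, 4.35% were higher and 4.55% lower by that measure in F1, and 4.41% and 4.49% in F2. The hepatocyte nuclear receptor gene hnf4a, which in mammals activates apob, mttp and apoc3, was listed by the authors' deposited tables at 11.0 and 9.89 FPKM in F1 and at 8.92 and 8.37 in F2 (log2 fold changes -0.16 and -0.09, q = 0.9995 and 0.997). The forkhead gene foxo1, an activator of mttp in mice, had 0.79 in F1 (p = 0.0104, q = 0.247) in the authors' deposited table and 0.18 in F2. The sterol regulator gene srebf2 had -0.78 and 0.35 (q = 0.328 and 0.864) in the authors' deposited tables, a difference of 1.13 (adjusted p = 0.265, normal test).

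The coactivator gene ppargc1a had -0.85 in F1 (q = 0.264) and 0.57 in F2 (q = 0.728) in the authors' deposited tables, and the fatty acid sensor gene ppara had 0.88 (q = 0.538) and 0.37 (q = 0.847). The carbohydrate response gene mlxipl had 0.06 in F1 and 0.85 in F2 (q = 0.227), and insig2, which holds back sterol regulator processing, had -0.44 and 0.60 (q = 0.331 in F2), in the authors' deposited tables.

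**Figure D5:**
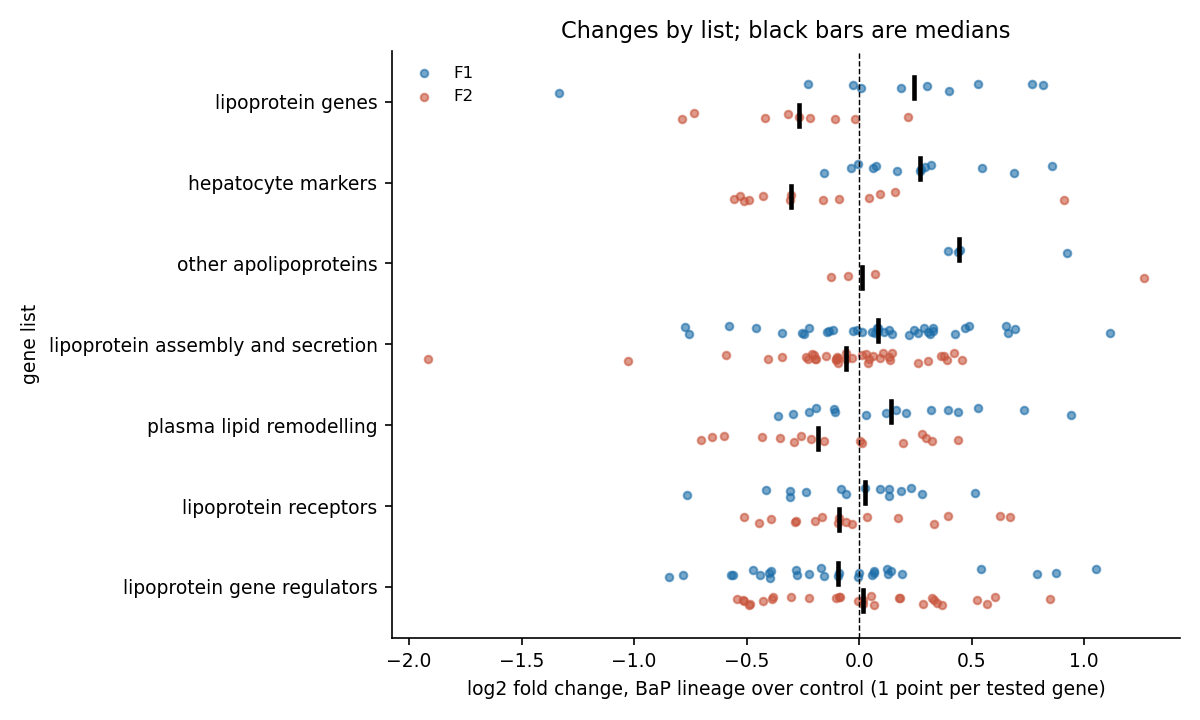
Log2 fold change of the BaP lineage over control (horizontal axis) of each tested gene by list, blue for F1 and red for F2, with a black bar at the median; points are jittered vertically. The lipoprotein genes have medians of 0.24 in F1 and -0.27 in F2, and the hepatocyte markers 0.27 and -0.30.

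A few markers of other tissues were called in the same tables. Of all tested rows, 1.67% were called in F1 and 1.32% in F2, and 53.2% and 45.8% were above 0. At an unadjusted p under 0.05, 4.35% were higher and 4.55% lower in F1, and 4.41% and 4.49% in F2. Of 9 skeletal muscle rows tested in F1, 4 were called lower (acta1, ckm, tnni1 and tnnt1) and all 9 were below 0, with a median log2 fold change of -1.88. In F2, 1 of 7 tested was called lower (acta1) and the median was -0.90. Summed over all 19 muscle rows, the levels were 50.0 and 32.1 FPKM in the F1 control and BaP groups and 33.7 and 30.6 in F2, with des.1 the highest row at 19.1 and 17.8 FPKM in F1 and 13.7 and 17.4 in F2. Of 12 pancreas rows tested in F1, 3 were called higher (ctrc, ctrb2 and cpb1) and 6 were higher at an unadjusted p under 0.05. The median log2 fold change was 4.91, with ctrb2 and cpb1, listed at 0 in controls, ranked highest. In F2, 0 of 6 were called by Cuffdiff and 3 were higher at an unadjusted p under 0.05, with a median of 2.03. The protease gene ctrc was listed by the authors' deposited tables at 0.433 and 14.4 FPKM in F1 and at 0.316 and 5.17 in F2. The sums over all 23 rows, 624 and 709 FPKM in F1 and 336 and 348 in F2, were mostly the amylase rows, of which amy2a had 361 and 351 FPKM and amy2b 256 and 299 in F1. Of 12 erythrocyte rows tested in F1, 1 was called higher (hbd), 4 were higher at an unadjusted p under 0.05 and all 12 were above 0. Sums over the 14 usable rows of the 16 listed were 498 and 794 FPKM. The globin rows hba1 and hbg1 were marked as having too much data in both tables and are left out of the F1 and F2 sums. In F2, 0 of 13 were called by Cuffdiff, 0 had an unadjusted p under 0.05 and 4 of 13 were above 0, with sums of 1251 and 1169 FPKM. Of 11 pigment cell rows 4 were tested in F1 and 0 called, with 1 higher (slc45a2) and 3 lower (pmel, tyrp1 and mlana) at an unadjusted p under 0.05. In F2 only 1 was tested, pmel, and it was called lower. The sums over the 11 rows were between 2.31 and 7.98 FPKM. The part of these tissues in the values of the lipoprotein genes was not tested.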

How the data were processed

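Stranded poly(A) libraries from 15 mg of liver were sequenced as 75 bp reads, per the labels' protocols. Cuffdiff 0.0.7, Cufflinks 0.0.7, HISAT2 and Trimmomatic 0.32.1 are named in the submitters' processing notes, without parameters. Per the file headers, each of the 2 tables compares BaP with control in 1 generation. The deposited values are group FPKM made by the authors, a log2 fold change with no pseudocount, a test statistic (a score deposited by Cuffdiff), a p-value and a q-value by the authors. All 11 rows have the same ends in the RefSeq gene table of assembly UCB_Xtro_10.0, so positions are 1-based on that assembly.

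From these, standard errors (the size of the log2 fold change over the normal quantile of p), 95% intervals and the F2 minus F1 test were computed across all genes tested in both tables, with Python 3.11.15 and SciPy 1.17.1. The test was tried on data simulated with those same normal errors, so the trial cannot show whether the errors fit the real data. P-values were adjusted by Benjamini-Hochberg. The lipoprotein genes and the lists were chosen with earlier results of these data known. Besides the lipoprotein genes and a fixed set of partners (among them ldlr, lipc and hnf4a), the text names called list members and the 2 rows with the smallest p per lipoprotein list and generation, and hepatocyte, enterocyte and chromosomal neighbours as examples. Of the fixed partners, nr1h3 was in no row used here, and 1 other is not reported here. Depth per library is unknown. Alternatives were other q limits, recomputed q, a fold minimum of 1.5, centring, a pseudocount of 1 FPKM and other standard errors.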

Additional observations from a re-analysis of the deposited data

How the results depend on the processing

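No lipoprotein gene was called in F1 or F2 at q under 0.1, under 0.05 or under 0.01, with q recomputed over all tested rows or over those reaching 1 FPKM, or with a fold minimum of 1.5; at an unadjusted p under 0.05 there were 2 in F1 and 2 in F2. The median of the lipoprotein genes moved from 0.24 to 0.0680 in F1 and from -0.27 to -0.14 in F2 when each value was centred on the median of its FPKM class. It moved by less than 0.1 with centring on all tested rows, a pseudocount of 1 FPKM, all usable rows or genes reaching 10 FPKM. Signs turned for apoa4 in F1 (-0.0145 centred on all tested rows, -0.15 centred on its class), apob in F2 (0.0141 and 0.171, in the same order) and apoa1 in F2 (0.0827 centred on its class). The difference between generations was called for 0 of the lipoprotein genes with standard errors from p or from the test statistic, with centred changes and among rows reaching 1 FPKM (adjusted p of the normal test from 0.448 to 0.999999). No paired analysis was possible because the tables hold no values of single frogs, and leaving out each frog was not run for that reason. For the same reason the spread between frogs and the depth of each library limit every statement above by an unknown amount.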

Other observations

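The deposited control values of several lipoprotein genes differed between the 2 generations, although the tables were scaled separately. Whether the livers differed was not tested, since the tables hold no values of single frogs. Over 9988 rows at 1 FPKM or more in both control groups, the F2 level was a median 0.809 times the F1 level (quartiles 0.492 and 1.34). The ratio was 3.10 for the lipase cofactor gene apoc2, 2.45 for mttp.1, 1.95 for apob and 1.81 for apoa1. Of the rows, 3.61%, 6.74%, 11.6% and 13.7% had a ratio at least as high, in the same order. Control values of other liver genes differed too, in both directions. In F1 and F2 controls fgb had 913 and 2311 FPKM and dgat2 144 and 437, while f2 had 975 and 812. The ratio was 1.49 for apoh, 1.33 for lcat, 1.17 for apoc1 and 0.915 for apoa4. It was 0.967 for apoe. For pltp it was 0.102, but at 0.191 FPKM in F2 controls pltp is not among the 9988 rows, and its ratio rests on a value near the floor. In a ratio of 2 genes within a group, a scaling shared by the whole group cancels, but one that differs between its frogs does not. The ratio of apoc1 to apoc2 was 18.6 in F1 controls and 21.95 in F1 BaP frogs, against 7.01 and 7.51 in the F2 groups. The ratio of apoa4 to apoa1 was 2.91 and 2.22 in the F1 groups and 1.47 and 1.84 in the F2 groups.

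By the pair of log2 fold changes in F1 and F2, over 2 comparisons and 9774 other rows at 1 FPKM or more in all groups, the nearest rows to apoe were calm2, rpl26 and eif4e, at Euclidean distances of 0.00798, 0.0194 and 0.0210. Those nearest to mttp.1 were stn1, sh3bp4 and mapk13 (0.00938, 0.0271 and 0.0295), and those nearest to apoa4 were cul1, LOC100486384 and svil (0.00241, 0.00319 and 0.00506). With 2 values per gene, such nearness is a description only.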
